A study of Botryllus schlosseri with 27 samples.

Results

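Transcript levels were compared between 2-year-old and 4-month-old colonies of line SMG of Botryllus schlosseri, a colonial sea squirt kept in laboratory culture. The comparison used 6 of the 27 libraries of the series, 3 at each age, chosen by the line and the age given in the labels. The 2-year libraries came from genotype SMG_g2, which is recorded as the offspring of a 3-year-old SMG genotype, and the 4-month libraries came from genotype SMG_g3, recorded as the offspring of SMG_g2. The count table spells the line of the 4-month columns SMGO instead of SMG, and they were matched to the 4-month SMG samples because no other sample fits that name. All were wild type and untreated, RNA was extracted from whole colonies, and the study sampled colonies at stage B2 of the budding cycle. Age, generation and genotype changed together between the groups and cannot be told apart. The labels do not say whether the 3 libraries of an age came from separate colonies, so p-values measure the spread between libraries of 1 genotype, which may be partly technical. Lines SB825 and SMH, sampled at the same ages with 3 libraries per group, served to show where the SMG difference departed from theirs.

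Botryllus colonies consist of many small zooids embedded in a common tunic and joined by shared blood vessels. Zooids are renewed together in a recurring asexual budding cycle in which the adult generation regresses by programmed cell death while the buds take over feeding. Each zooid has a gut, a heart, body muscle, ciliated gill slits and, in sexually mature colonies, testes and eggs, and blood cells that take part in recognition and clearance circulate through the whole colony. A whole-colony library mixes all of these tissues, so fewer cells of a type and less RNA per cell cannot be told apart.

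Each library held between 34321570 and 41457576 counted reads over 50106 contigs of an assembled transcript set. The number of contigs with any read was 43435, 43111 and 42664 in the 2-year libraries and 36013, 36007 and 35728 in the 4-month libraries. Levels are given as CPM, read counts put on a common library total after scaling of the 6 libraries to each other, and they were not compared between contigs because contig lengths were not used. The 26919 contigs at 1 CPM or more in at least 3 of the 6 libraries were tested. With edgeR's quasi-likelihood test at a false discovery rate of 0.1, 19985 contigs (74.2%) differed between ages, 10324 (38.4%) higher and 9661 (35.9%) lower at 2 years. A stricter edgeR test, which asks whether the difference exceeds 2-fold, called 8859 contigs (32.9%), 6065 (22.5%) higher and 2794 (10.4%) lower. These shares are the background for the counts of contigs below, beside those of the contigs with a named homolog given next. Of all called contigs 51.7% were higher at 2 years, and with scaling by library totals alone this share was 31.7%. Past 2-fold the shares were 68.5% and 37.7%, because library totals alone lowered the median log2 difference of all tested contigs by 0.652. Within an age the libraries correlated at 0.954 to 0.982 across contigs, and between ages at 0.669 to 0.713.

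Names of contigs are those of the closest human protein as given by the study for contigs that it had selected on 3-year against 4-month libraries of all lines, and those young libraries include the 3 used here. A higher or lower count within a group of named contigs is therefore not independent evidence of its direction. In all, 888 contigs carried a named homolog and 547 of them were tested, of which 355 were called higher and 79 lower at 2 years. Past 2-fold, 301 were higher and 62 lower, and the median log2 difference was 2.70. Contigs with a named homolog were thus called higher more often than all tested contigs, and counts within groups of them should be read beside these numbers. Contigs that share a name may be pieces or close copies of 1 gene, and how reads were divided between them is uncertain.

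**Figure D1:**
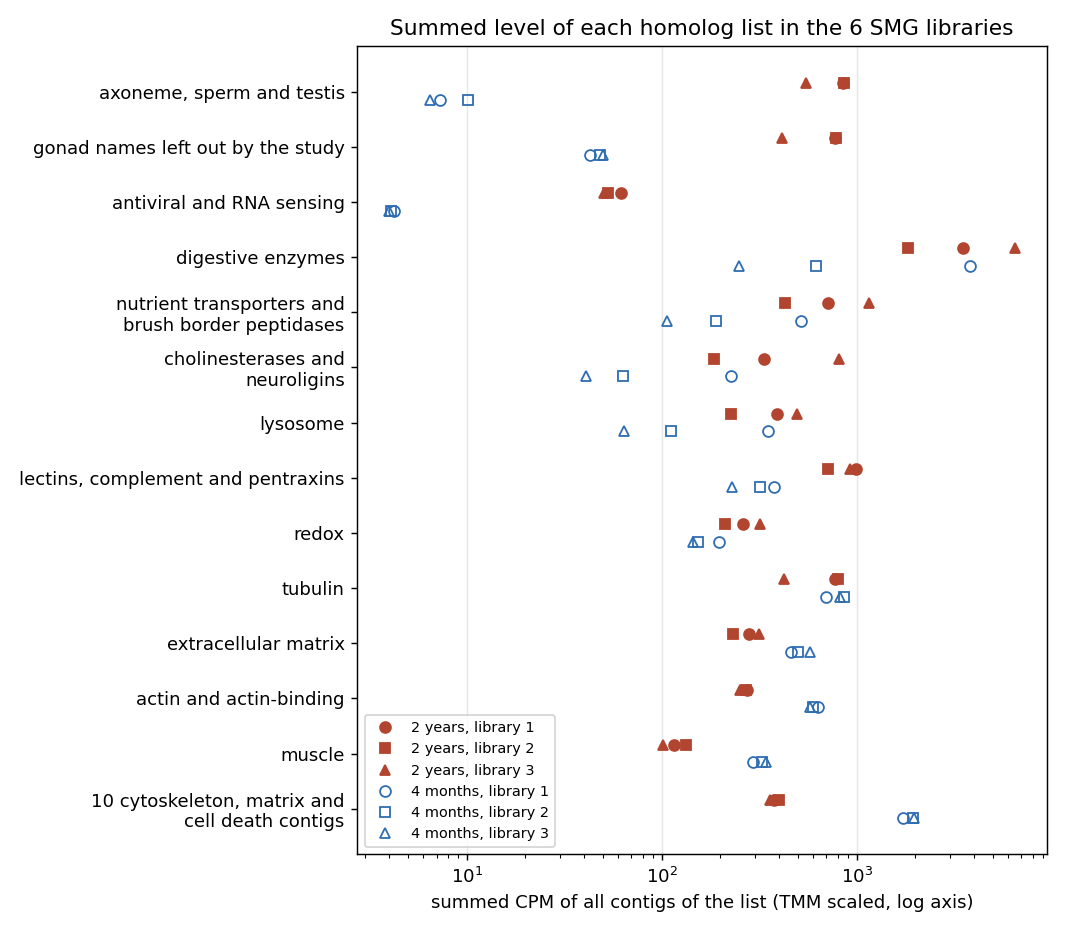
Summed CPM (log axis) of all contigs in 14 of the 18 groups of named homologs, with 1 point per library and the 2-year libraries drawn above the 4-month libraries in each row. The axoneme, sperm and testis group sat at 553 to 862 CPM in the 2-year libraries and 6.52 to 10.1 CPM in the 4-month libraries, while the digestive enzyme sums of the ages overlapped.

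The 10 contigs that the study put forward as leading age-associated transcripts outside fertility were all lower at 2 years, and all 10 passed the test past 2-fold. Their summed level was 379, 398 and 359.8 CPM in the 2-year libraries, against 1738, 1940.0 and 1972 CPM in the 4-month libraries. The groups did not overlap for any of the 10. The study chose these 10 with the young SMG libraries included, which favours such a separation. Of all tested contigs, 36.2% had every 2-year library below and 38.1% every 2-year library above the 4-month libraries (74.3% in all). The median log2 difference of the 10 leading contigs was -2.68. One of them, the caspase 2 homolog, passed the filter on low values only through the 4-month libraries.

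Cytoplasmic actin (CAP3_round1_contig_6729), the filament protein of the cell cortex, had 111, 128 and 104 CPM at 2 years, against 334, 321 and 327 CPM at 4 months. Every 2-year library was below every 4-month library, and the log2 difference was -1.51 (SE 0.10, edgeR adjusted p = 1.23e-05). A homolog of actin-related protein 2/3 (Bot_rep_c48230), part of the complex that nucleates branched actin filaments, had 35.9, 40.4 and 33.0 CPM at 2 years, against 225, 209 and 206 CPM at 4 months. It was lower in all 2-year libraries, by 2.55 on the log2 scale (SE 0.11).

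Among the contigs listed as actin and actin-binding homologs, direction depended on the member. The list also took in microtubule proteins, among them dynactin subunit 1 and CLIP-associating protein 1. Its counts and median are therefore not those of actin-binding proteins alone. The list held 20 contigs, 15 were tested, and 8 of those passed the filter only through the 2-year libraries. Past 2-fold, 11 were higher and 3 lower at 2 years, and the median log2 difference was 3.75. The summed level ran the other way, at 273, 270.0 and 252 CPM in the 2-year libraries and 635, 599 and 574 CPM in the 4-month libraries, because actin and actin-related protein 2/3 made up most of it. Myosin-9 (Bot_rep_c36916), a non-muscle motor of actin filaments, was among the higher contigs with 38.0, 33.6 and 41.5 CPM at 2 years and 2.27, 1.87 and 2.13 CPM at 4 months (log2 difference 4.17, SE 0.15). Advillin (Bot_rep_c57342), an actin-severing protein, had 7.62, 6.23 and 8.13 CPM at 2 years and 0.0855, 0.291 and 0.0925 CPM at 4 months. Both were higher in every 2-year library. The third contig that was lower past 2-fold was dynactin subunit 1 (Bot_c9202), part of the dynein motor's adaptor, with 4.27, 4.41 and 3.03 CPM at 2 years and 66.9, 62.0 and 33.7 CPM at 4 months.

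Tubulins, the subunits of microtubules, fell into opposite sets under the same names. Of 14 tubulin contigs 10 were tested, 4 were lower past 2-fold at 2 years and 6 were higher past 2-fold, and 2 of the higher ones passed the filter only through the 2-year libraries. The most abundant of the lower set, a tubulin alpha-3C/D homolog (CAP3_round1_contig_7678), had 37.7, 32.2 and 41.6 CPM in the 2-year libraries, against 423, 519 and 503 CPM in the 4-month libraries. All 2-year libraries were far below all 4-month libraries, and the log2 difference was -3.70 (SE 0.14, edgeR adjusted p = 2.99e-06). The other lower contigs were tubulin alpha-1A (Bot_rep_c58495), alpha-3E and a beta-2C homolog (Bot_rep_c57029), with log2 differences of -3.02, -3.30 and -3.13.

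In the opposite set, another beta-2C homolog (CAP3_round1_contig_6873) had 278, 287 and 137 CPM at 2 years and 2.95, 3.61 and 1.76 CPM at 4 months. It was higher in all 2-year libraries, with a log2 difference of 6.39 (SE 0.48). The only tested beta-3 homolog had 90.2, 103 and 46.9 CPM at 2 years and 1.11, 1.2 and 1.06 CPM at 4 months, a log2 difference of 6.15. A second alpha-3C/D contig (Bot_c25399) had 6.98, 4.82 and 5.37 CPM at 2 years and no read in any 4-month library, at least 266-fold higher when 3 reads over the 4-month group are taken as the floor. The same floor was used for all such bounds below, and a floor of 3 read pairs would lower them. In each of the 4 higher contigs with reads at 4 months, 2-year library 3 held the lowest of the 2-year values. Because the sets nearly balanced, the summed tubulin level overlapped between ages, at 773, 799 and 426 CPM in the 2-year libraries and 696, 863 and 823 CPM in the 4-month libraries.

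**Figure D2:**
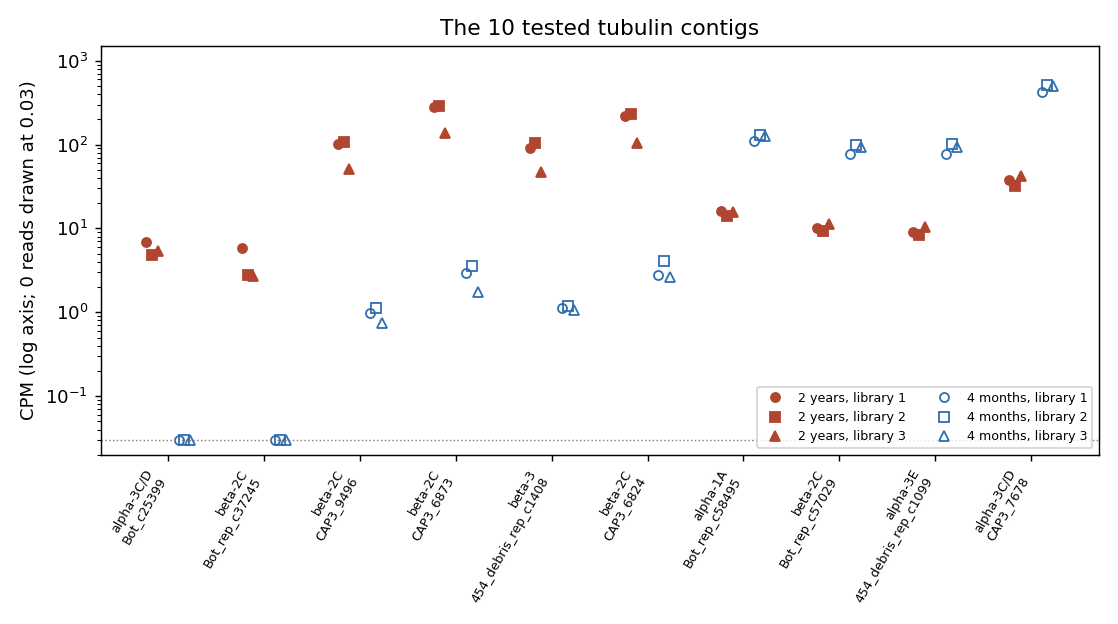
CPM (log axis) of the 10 tested tubulin contigs in each library, with the 2-year libraries before the 4-month libraries and values of 0 reads drawn at 0.03. The 4 contigs among the study's leading transcripts lie higher in the 4-month libraries and the other 6 lie higher in the 2-year libraries.

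Muscle homologs were also divided. The 6 contigs included 4 that were tested, of which 2 were higher and 2 lower past 2-fold. The 2 higher contigs passed the filter only through the 2-year libraries, so they had to be higher there. The summed level of the group was 116, 133 and 102 CPM in the 2-year libraries. In the 4-month libraries it was 293, 329 and 345 CPM, without overlap. Transgelin-2 (Bot_rep_c54695), a calponin-family actin-binding protein, had 53.3, 57.0 and 49.9 CPM at 2 years and 172, 187 and 196 CPM at 4 months, and troponin T (Bot_rep_c51715), the tropomyosin-binding part of the troponin switch, had a log2 difference of -1.47. Troponin C (Bot_rep_c54184), the calcium-binding part of that switch, had 10.3, 10.9 and 5.63 CPM at 2 years and no read at 4 months (at least 429-fold higher). Of the 6 muscle contigs 3 had no read at 4 months, and all had reads at 2 years.

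The fibrillar collagen homolog (CAP3_round1_contig_8075, collagen alpha 1 type II), a structural protein of the extracellular matrix, had 131, 134 and 109.7 CPM in the 2-year libraries, against 396, 455 and 511 CPM in the 4-month libraries. It was lower in every 2-year library, with a log2 difference of -1.86 (SE 0.13, edgeR adjusted p = 1.35e-05). The matrix homologs as a group, this contig included, were mostly higher at 2 years. So were the contigs with a named homolog in all (301 of 547 higher and 62 lower past 2-fold). Of 36 matrix contigs 20 were tested, 13 were higher and 3 lower past 2-fold, and the median was 2.47. Of the tested contigs, 7 passed the filter only through the 2-year libraries, so those had to be higher there. Another 2 passed only through the 4-month libraries. The summed level was lower at 2 years all the same, at 282, 232 and 314 CPM against 461, 503 and 578 CPM at 4 months, and collagen alpha 1 held most of it at 4 months.

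Among the higher matrix contigs, collagen alpha-1 type XII (Bot_rep_c45226), a fibril-associated collagen, had 29.3, 17.4 and 35.0 CPM at 2 years and 5.82, 5.98 and 7.31 CPM at 4 months. The FRAS1 homolog (Bot_c33954), a protein of epithelial basement membranes, had 8.83, 6.17 and 10.1 CPM at 2 years and 0, 0.0415 and 0 CPM at 4 months. Both sets of 2-year libraries lay above the 4-month libraries. A contig of cartilage intermediate layer protein 1 (Bot_c20604) was lower at 2 years with 0.0577, 0.235 and 0.0865 CPM, against 2.91, 0.914 and 24.8 CPM at 4 months, but its spread at 4 months was wide (log2 difference -6.16, SE 1.91) and it was no longer called when any one of the 2-year libraries was left out.

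Transcripts of cell death and division in the study's leading set were lower at 2 years. The caspase 2 homolog (Bot_c10337), a protease of the apoptotic cascade, had 0.75, 0.588 and 0.779 CPM at 2 years and 4.75, 4.20 and 5.83 CPM at 4 months. Programmed cell death protein 5 (Bot_rep_c35773), which accumulates in dying mammalian cells, had 24.1, 27.7 and 30.1 CPM at 2 years and 82.9, 89.2 and 97.7 CPM at 4 months. Cell division cycle protein 23 (Bot_rep_c37856), a subunit of the anaphase-promoting complex, had 3.29, 2.82 and 2.77 CPM at 2 years and 8.00, 8.81 and 8.23 CPM at 4 months. All 3 were below the 4-month values in every 2-year library, with log2 differences of -2.81, -1.72 and -1.49. Of the 8 apoptosis homologs 5 were tested, and the 3 beside caspase 2 and programmed cell death protein 5 were called higher at 2 years, 2 of them past 2-fold. Those 2 passed the filter only through the 2-year libraries. FAS-associated factor 1 (CAP3_round1_contig_3411) had 26.4, 29.4 and 13.5 CPM and a baculoviral IAP repeat protein 2 homolog (Bot_c10263), from a family of caspase inhibitors, had 2.83, 2.64 and 2.08 CPM, with no read of either at 4 months.

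Axoneme, sperm and testis homologs had the largest median difference of the 18 groups. These include dyneins and sheath proteins of motile cilia and sperm tails as well as kinases of developing sperm. Their summed level was 848, 862 and 553 CPM in the 2-year libraries, against 7.27, 10.1 and 6.52 CPM in the 4-month libraries, a ratio of group means of 94.6. Of 55 contigs 40 were tested, all 40 were higher past 2-fold, and the median log2 difference was 7.90. However, 37 of the 40 passed the filter only through the 2-year libraries, so they had to be higher there, and 14 had no read at 4 months. The testis-specific serine/threonine kinase 1 homolog (Bot_rep_c45338) had 128, 151 and 102 CPM at 2 years and 0.128, 1.04 and 0.0462 CPM at 4 months. Fibrous sheath-interacting protein 2 (CAP3_round1_contig_4558), of the sperm tail, had 129, 123 and 84.1 CPM at 2 years and 0.984, 1.41 and 1.11 CPM at 4 months. Kelch-like protein 10 (Bot_c24963), which is needed for sperm formation in mice, had 17.4, 15.4 and 12.1 CPM at 2 years and no read at 4 months (at least 706-fold higher). In all of these contigs the ages were far apart, and of the 40 tested contigs 21 had their highest 2-year value in library 1, 16 in library 2 and 3 in library 3. Names that the study set aside as related to fertility were mostly higher at 2 years. So were the contigs with a named homolog in all (355 of 547 called higher). Of 27 contigs 18 were tested, 8 of them only through the 2-year libraries, so those 8 had to be higher there. Of the 18, 13 were called higher, 2 lower and 3 not at all. Past 2-fold 13 were higher and none lower, where library totals alone gave 12 higher and 2 lower. Their sums were 779.7, 788 and 416 CPM at 2 years, against 42.9, 48.3 and 50.3 CPM at 4 months. Their most abundant member was otoancorin (CAP3_round1_contig_9042), a protein known from the mammalian inner ear, with 288, 268 and 115 CPM at 2 years and 0.941, 0.956 and 0.139 CPM at 4 months.

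Digestive enzymes were called higher at 2 years about as often as all tested contigs (41.2% against 38.4%). They were called higher less often than the tested contigs with a named homolog (355 of 547). Among the 4-month libraries, library 1 held much more of them than the others. The summed level was 3524, 1833 and 6512 CPM at 2 years and 3810.4, 616 and 249.9 CPM at 4 months. The groups overlapped through that library. Of 95 contigs 85 were tested (19 only through the 2-year libraries), 35 were called higher and 1 lower, and past 2-fold 27 were higher and 1 lower, with a median log2 difference of 2.27. Without 4-month library 1, the quasi-likelihood test called 83 of the 85 higher, and limma-voom with all libraries called 77 with a median of 4.36. The same libraries held the extremes throughout the group, since 80 of the 85 contigs had their highest 2-year value in library 3, and 73 of the 76 with reads at 4 months had their highest 4-month value in library 1. The part of this spread between libraries in the age difference was not tested.

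Chymotrypsinogen B2 (Bot_rep_c53951), the precursor of a pancreatic-type protease, had 228, 124 and 415 CPM at 2 years and 354, 14.9 and 1.62 CPM at 4 months. Its groups overlapped and it was not called (log2 difference 1.05, SE 1.92, edgeR adjusted p = 0.654). In contrast, 6 contigs named trypsin-2 had no read in any 4-month library, 4-month library 1 included, and all 6 were higher past 2-fold. These 6 were singled out by that absence and passed the filter only through the 2-year libraries, so they had to be higher there. The most abundant (Bot_rep_c51149) had 148, 75.6 and 280.0 CPM at 2 years (at least 7117-fold higher), the next (CAP3_round1_contig_6862) had 100.1, 44.7 and 199.8 CPM, and the third (Bot_rep_c48453) had 47.9, 22.3 and 94.3 CPM. The others ranged down to 5.02, 2.53 and 7.18 CPM at 2 years. A chymotrypsinogen B contig (Bot_c16350) with 30.2, 28.6 and 20.2 CPM at 2 years and 0.214, 0.0831 and 0.0925 CPM at 4 months did not show the excess in 2-year library 3. The only digestive contig lower past 2-fold was carboxypeptidase A2 (CAP3_round1_contig_6849), which trims amino acids from the ends of peptides, with 60.7, 36.7 and 47.0 CPM at 2 years and 688, 433 and 208 CPM at 4 months.

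**Figure D3:**
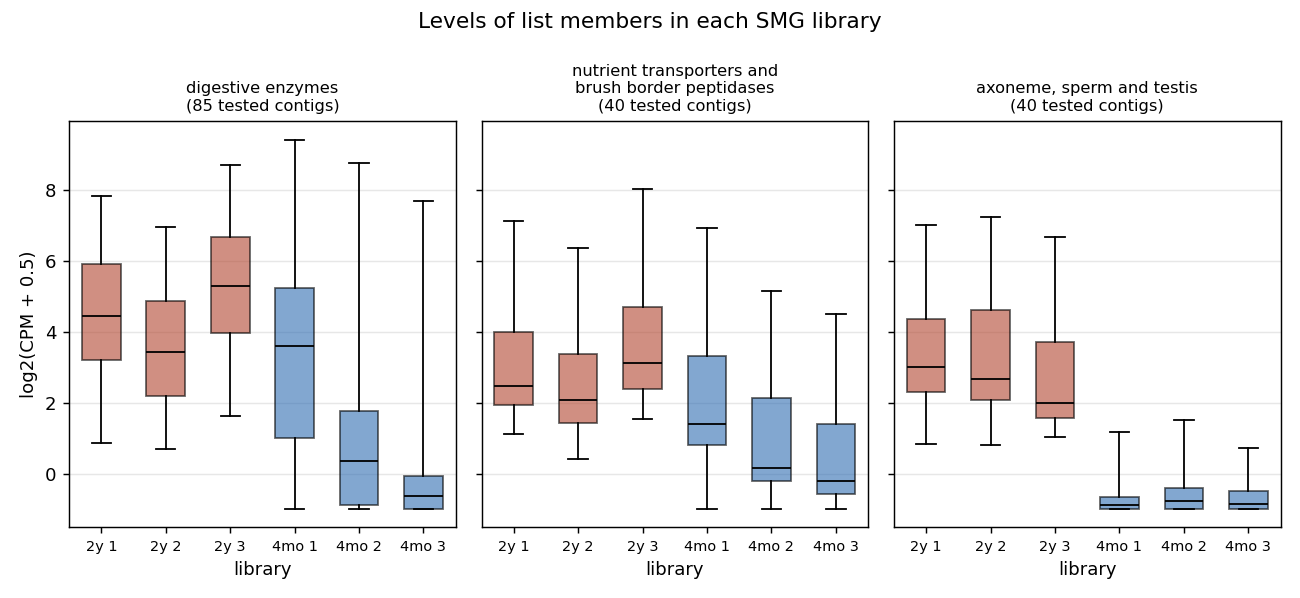
Box plots of log2(CPM + 0.5) over the tested contigs of 3 groups of homologs in each of the 6 libraries, 2-year libraries first, with boxes from the lower to the upper quartile and whiskers from the lowest to the highest contig. The 85 digestive and 40 nutrient transporter contigs are raised in 2-year library 3 and 4-month library 1, and the 40 axoneme contigs are low in all 3 4-month libraries.

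Nutrient transporters and brush border peptidases, the proteins that take up sugars, amino acids and small peptides at the gut surface, varied between libraries in the same way. Of 57 contigs 40 were tested, 27 were called higher and 1 lower, and 12 and 1 passed 2-fold, with a median of 1.96. The count called higher was 38 without 4-month library 1, 16 without 2-year library 3 and 15 without 4-month library 2, and with library totals alone it was 15. The highest 2-year value stood in library 3 for 38 of the 40, and the highest 4-month value in library 1 for 36 of the 39 with reads at 4 months. Glutamyl aminopeptidase (Bot_rep_c48276), the most abundant, had 141, 81.5 and 260.1 CPM at 2 years and 122, 34.9 and 12.4 CPM at 4 months, which overlapped and was not called (edgeR adjusted p = 0.244). The sodium-coupled monocarboxylate transporter 1 homolog (Bot_c17643) was lower at 2 years, with 5.25, 5.17 and 6.92 CPM against 17.2, 20.3 and 22.2 CPM at 4 months.

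Cholinesterases and related adhesion homologs had all 11 tested contigs highest in the same pair of libraries, 2-year library 3 and 4-month library 1. Of the 11 contigs (of 16), 7 were called higher and none lower, 5 past 2-fold, and the sums were 336, 186 and 814 CPM at 2 years and 226, 63.7 and 40.7 CPM at 4 months. The count called higher was 11 without 4-month library 1, 4 without 4-month library 2 and 5 without 4-month library 3. Lysosomal homologs, which degrade proteins and lipids inside the cell, gave 5 higher and 1 lower of 15 tested contigs (of 24), 13 higher without 4-month library 1, and 11 higher with limma-voom. A proactivator polypeptide homolog (CAP3_round1_contig_6910), the precursor of the lipid-binding saposins, had 96.8, 63.2 and 89.9 CPM at 2 years and 144, 39.7 and 16.6 CPM at 4 months. Its groups overlapped, and its log2 difference of 0.32 turned to -0.43 with library totals alone and to -0.063 without 4-month library 3.

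Recognition and immune homologs, grouped by their human names, were mostly higher at 2 years, as were the contigs with a named homolog in all. Lectin, complement and pentraxin homologs, most of which bind sugars on cells or microbes, summed to 994, 717 and 929 CPM in the 2-year libraries and 378, 321 and 229 CPM in the 4-month libraries, without overlap. Of 61 contigs 31 were tested (9 only through the 2-year and 2 only through the 4-month libraries), 22 were called higher and 5 lower, and 17 and 4 passed 2-fold, with a median of 2.34. Stabilin-2 (CAP3_round1_contig_9123), named for a mammalian scavenger receptor of vessel-lining cells, had 514, 397 and 525 CPM at 2 years and 7.10, 8.81 and 7.07 CPM at 4 months. The 2-year libraries were close to each other and all far above the 4-month libraries (log2 difference 5.97, SE 0.18, edgeR adjusted p = 2.76e-06). P-selectin (CAP3_round1_contig_2334), named for a mammalian adhesion receptor of platelets and vessel walls, had 114, 105 and 43.7 CPM at 2 years and 5.35, 5.40 and 4.25 CPM at 4 months. The study set P-selectin aside with fertility genes, which it located to gonads or germline precursors and not to vessels. The name is also counted in the fertility group above. A contig named C-type lectin domain family 4 member C (Bot_rep_c36310) went the other way, with 0.115, 5.82 and 0.433 CPM at 2 years and 171, 141 and 77.6 CPM at 4 months. Its 2-year value in library 2 stood above the other 2-year values, and the log2 difference of -5.91 had a wide error (SE 1.61). The lectin group left out 9 contigs with the human name latrophilin-2, which the study matched to rhamnose-binding lectins of Ciona. Their sums ran the other way, at 28.7, 182 and 45.5 CPM at 2 years against 2281, 2109 and 1443 CPM at 4 months.

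Antiviral and RNA-sensing homologs were low in expression and close between libraries of an age. Their sums were 62.1, 53.2 and 50.5 CPM at 2 years and 4.23, 4.07 and 3.98 CPM at 4 months. Of 19 contigs 8 were tested, 7 of them only through the 2-year libraries, and all 8 were higher past 2-fold with a median of 3.81. The RNF213 homolog (CAP3_round1_contig_5735), a large ubiquitin ligase, had 15.3, 18.7 and 12.8 CPM at 2 years and 1.75, 1.83 and 1.11 CPM at 4 months. An NFX1-type zinc finger homolog (Bot_c16014), from a family that binds viral RNA in mammals, had 10, 8.46 and 7.79 CPM at 2 years and 0.214, 0.208 and 0.324 CPM at 4 months. Both were higher in every 2-year library, with log2 differences of 3.31 and 5.13.

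Notch, vascular growth and axon guidance homologs split evenly. Notch receptors and their jagged ligands signal between touching cells, and neuropilins are co-receptors for vascular growth factors and semaphorins. Of 27 contigs 15 were tested, 7 were called higher and 7 lower, and 6 and 5 passed 2-fold, with a median of -0.41. Of these, 4 passed the filter only through the 2-year and 2 only through the 4-month libraries. A notch 2 homolog (Bot_rep_c45034) had 2.14, 5.05 and 1.73 CPM at 2 years and 60.5, 54.0 and 32.6 CPM at 4 months, and contigs named notch 1 and notch 3 had log2 differences of -3.82 and -3.98. The most abundant notch 2 contig (CAP3_round1_contig_6397) had 86.1, 39 and 59.1 CPM at 2 years and 64.5, 84.3 and 95 CPM at 4 months. The ages overlapped and it was not called (log2 difference -0.41, SE 0.30, edgeR adjusted p = 0.275). Neuropilin-2 (Bot_rep_c47078) was higher at 2 years, with 20.1, 24.6 and 17 CPM against 0, 0 and 0.0462 CPM at 4 months. Only 2 reads, that is 1 read pair, stood in the 4-month group, which gives a ratio of 1451. A 95% exact Poisson interval of 402 to 11980.1 took the 2 reads as independent, so the counting error by read pairs is wider. The interval also leaves out the spread between libraries.

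Translation, folding and redox homologs went in both directions. The 40S ribosomal protein S21 homolog (CAP3_round1_contig_5268), a component of the small ribosomal subunit and on average the most read contig at 4 months, had 3027, 3411 and 2934 CPM at 2 years and 12515, 14358 and 12986 CPM at 4 months. It took 0.253%, 0.311% and 0.190% of all reads in the 2-year libraries and 1.70%, 1.83% and 1.47% in the 4-month libraries, all lower at 2 years (log2 difference -2.09, SE 0.12). Of 39 translation contigs 6 were tested, of which 4 were higher and 1 lower past 2-fold. Tryptophanyl-tRNA synthetase (CAP3_round1_contig_6956) had 30.1, 25.6 and 34.5 CPM at 2 years and 5.99, 5.19 and 5.36 CPM at 4 months. Both tested heat shock and folding contigs (of 13), a mitochondrial 10 kDa chaperonin (CAP3_round1_contig_5525) and an endoplasmin-like protein (Bot_rep_c57435), were lower past 2-fold, by 1.64 and 1.73 on the log2 scale. Redox homologs gave 9 higher and 5 lower past 2-fold of 17 tested contigs (of 21). Mitochondrial aldehyde dehydrogenase (CAP3_round1_contig_7882) had 87.2, 86.4 and 76.2 CPM at 2 years and 7.19, 8.81 and 8.51 CPM at 4 months, whereas nucleoredoxin (Bot_rep_c52098), a thioredoxin relative, had 18.9, 22.8 and 21.6 CPM at 2 years and 71.2, 74.2 and 76.1 CPM at 4 months. In both the ages stood apart. Among the groups above, the tested contigs that passed the filter only through the 2-year libraries numbered 2 for muscle, 8 for the fertility names, 7 for nutrient transporters, 3 for cholinesterases, 2 for lysosome, 3 for translation and 1 for redox, and 1 redox and 1 apoptosis contig passed only through the 4-month libraries.

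A family that belonged to none of these groups was chosen after its values were seen. All 9 contigs named latrophilin-2, which the study also matched to rhamnose-binding lectins of the sea squirt Ciona, were lower past 2-fold at 2 years, with log2 differences of -5.40 to -3.14. Their summed level was 28.7, 182 and 45.5 CPM at 2 years, against 2281, 2109 and 1443 CPM at 4 months. The lowest 4-month sum was well above the highest 2-year sum, and all 9 contigs had their highest 2-year value in library 2. The same 2-year library stood highest for sulfotransferase 1C4 (Bot_c9565), an enzyme that adds sulfate groups, with 2.71, 13.1 and 3.81 CPM at 2 years and 501, 452 and 252 CPM at 4 months, and for attractin-like protein 1 (CAP3_round1_contig_5345), with 0.0577, 3.00 and 0 CPM at 2 years and 63.8, 53.3 and 29.3 CPM at 4 months.

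**Figure D4:**
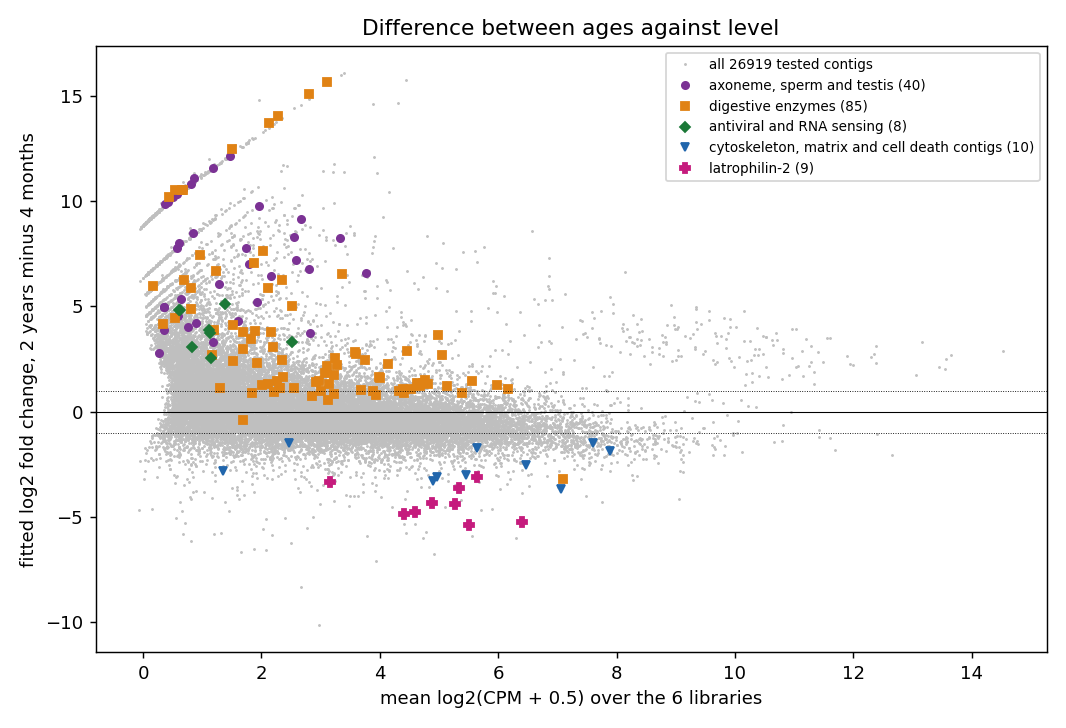
Fitted log2 difference (2 years minus 4 months) against the mean log2(CPM + 0.5) of the 6 libraries for the 26919 tested contigs, with contigs of several groups of homologs in colour. Axoneme contigs lie between 2.80 and 12.17, with a median of 7.90, and digestive contigs reach 15.65. The 9 latrophilin-2 contigs lie between -5.40 and -3.14.

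Some of the greatest differences lay in contigs without a named homolog. The most read contig of the 2-year libraries (CAP3_round1_contig_6491) had 64645, 59590.4 and 100084 CPM at 2 years and 2841, 8564 and 18935 CPM at 4 months. It took 5.40%, 5.43% and 6.48% of the reads in the 2-year libraries and 0.387%, 1.09% and 2.14% in the 4-month libraries, and was higher in all 2-year libraries (log2 difference 2.89, SE 0.76, edgeR adjusted p = 0.0212, and 0.0654 past 2-fold). The 10 most read contigs of each library together took 22.1%, 21.6% and 25.5% of the reads at 2 years and 6.54%, 8.89% and 12.2% at 4 months. Another unnamed contig (CAP3_round1_contig_5548) had 201, 289 and 187 CPM at 2 years and no read at 4 months, at least 10591-fold higher. In the opposite direction, Bot_c11105 had 0.0577, 0.0588 and 0.173 CPM at 2 years and 92.7, 117 and 101 CPM at 4 months, a log2 difference of -10.14 (SE 0.32).

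Presence and absence of reads were unequal between the ages. At 1 CPM or more in all 2-year libraries, 412 contigs had no read in any 4-month library, and no contig showed the reverse. Counting any reads, 3956 contigs had reads in all 3 2-year and in no 4-month library, against 20 with reads in all 3 4-month and in no 2-year library. Of the 412 contigs 48 had a named homolog, among them 14 axoneme and 9 digestive contigs, and their median mean level at 2 years was 3.57 CPM. Most were found in other SMG colonies, since 370 (89.8%) reached 1 CPM in the 3-year SMG libraries. In the 4-month libraries of the other lines, 244 (59.2%) reached 1 CPM in SB825 and 191 (46.4%) in SMH.

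The 2-year against 4-month difference was then set beside that of lines SB825 and SMH, which share no library with it. Past 2-fold, 32.9% of tested contigs were called in SMG, 7.59% in SB825 (6.03% higher and 1.56% lower) and 12% in SMH (8.8% higher and 3.21% lower). The quasi-likelihood test called 57.5% in SB825 (29.4% higher and 28.1% lower) and 57.4% in SMH (29.1% higher and 28.3% lower). Of the contigs higher past 2-fold in SMG and tested in the other line, 3237 of 5489 (59.0%) were also higher in SB825 and 3965 of 5508 (72.0%) in SMH, where 49.9% and 49% of all contigs tested in both lines were higher. Of those lower past 2-fold in SMG, 1777 of 2520 (70.5%) were lower in SB825 and 2078 of 2537 (81.9%) in SMH. Calls past 2-fold in the same direction were fewer. For the higher contigs they came to 6.50% in SB825 (5.38% of all contigs tested in both) and 15.9% in SMH (7.91%), and for the lower contigs to 5.24% in SB825 (1.39%) and 10% in SMH (3.02%). Across contigs, the log2 differences of SMG correlated at 0.21 with those of SB825 and 0.43 with those of SMH, where contigs are not independent replicates. Only 152 contigs were higher and 69 lower past 2-fold in all 3 lines, of 23701 tested in all. Contigs past 2-fold in SMG and past 2-fold the opposite way in another line numbered 243, of which 119 were higher and 124 lower in SMG.

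Scaled over all 27 libraries, the study's 10 leading contigs summed to 403 ± 22.4 CPM at 2 years and 2280.4 ± 157 CPM at 4 months in SMG (SD, n = 3). The sums were 316 ± 13.7 and 354 ± 6.25 CPM in SB825, and 608 ± 17 and 1023 ± 43.3 CPM in SMH. The separation was thus widest in SMG, through high 4-month levels. An interaction test in edgeR, which asks whether the SMG difference departs from the mean of the other lines, called 25023 of 34800 contigs (71.9%), 14122 (40.6%) above and 10901 (31.3%) below. All 10 leading contigs were among those below. The study chose these 10 with the young SMG libraries included. Neither this nor the wide separation in SMG is therefore independent evidence of a difference between lines. Axoneme sums were 802 ± 188 and 9.66 ± 2.33 CPM in SMG, 244 ± 87.8 and 107 ± 31 CPM in SB825, and 329.99 ± 84.6 and 19.9 ± 4.61 CPM in SMH.

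Digestive enzymes were set apart between ages in the other lines but not in SMG. The sums were 4199 ± 2501 and 1885 ± 2365 CPM in SMG, 7195 ± 4559.8 and 627 ± 337 CPM in SB825, and 10984 ± 3892 and 561 ± 205 CPM in SMH, at 2 years and at 4 months in that order. The lowest 2-year sum exceeded the highest 4-month sum in SB825 and SMH, whereas the SMG sums overlapped through 4-month library 1. This difference between lines was not tested on the sums. All 9 latrophilin-2 contigs were lower past 2-fold in all 3 lines, with log2 differences of -5.32 to -1.99 in SB825 and -3.97 to -2.45 in SMH. Stabilin-2 (CAP3_round1_contig_9123) was higher past 2-fold in all 3 lines as well, with log2 differences of 5.97 in SMG, 3.06 in SB825 and 3.47 in SMH. The SMG difference was larger by 2.59 (SE 0.23, edgeR adjusted p for the interaction = 9.87e-08). However, 71.9% of all contigs passed that test. The study also selected its named contigs with the young SMG libraries included, so the larger SMG difference is not independent evidence of a difference between lines.

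**Figure D5:**
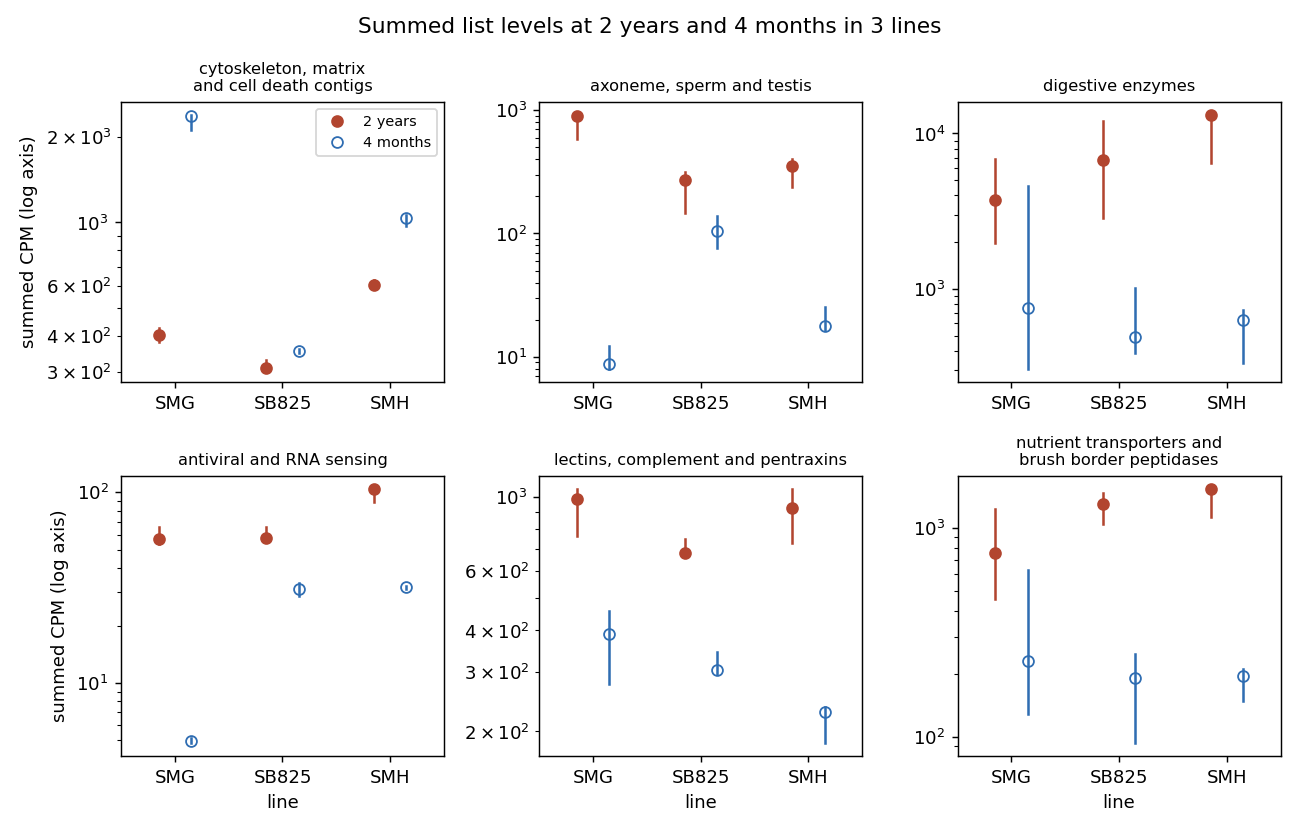
Summed CPM (log axis, scaled over 27 libraries) of 6 groups of homologs at 2 years and at 4 months in lines SMG, SB825 and SMH, with the middle library as a point and a bar from the lowest to the highest library. The study's leading contigs are separated most in SMG, at 381 to 426 CPM against 2100.1 to 2387 CPM, and the digestive enzymes overlap between ages in SMG alone.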

How the data were processed

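Whole-colony RNA was poly-A selected and sequenced in 27 libraries, of which the 6 of line SMG at 2 years and 4 months were compared. Per the labels and methods, reads were trimmed of their first 12 bases by the authors, mapped with Bowtie 0.12.7 to an assembled transcript set, and counted per contig. The submitters' processing notes also name CASAVA 1.8.2, SAMtools 0.1.18 and DESeq 1.10.1. The deposited values are counts, not normalized, and every value is even because both reads of a pair were counted. A deposited table of the authors' fold changes and p-values for 3 years against 4 months was not used for any value. Fold bounds for contigs without reads took 3 reads over a group as the floor. Because reads were counted in pairs, a floor of 3 pairs would lower these bounds.

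Counts were scaled by TMM within the 6 libraries (R 4.3.3, edgeR 4.0.16), contigs at 1 CPM in at least 3 libraries were kept, and ages were compared with the quasi-likelihood test and, past 2-fold, glmTreat, 2-sided, with Benjamini-Hochberg adjustment over all tested contigs at 0.1. Alternatives used limma 3.58.1 and DESeq2 1.42.0, other scalings and filters, and left out each library. The script was tested on simulated data. The members and lists were chosen with earlier results of these data known. Named contigs were the study's 10 leading contigs, the most abundant and the most changed member of each list in each direction, the most changed contigs in all, and the most read. Other contigs are examples chosen after their values were seen. Same-numbered libraries did not deviate together, so no pairing was used.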

Additional observations from a re-analysis of the deposited data

Results flagged for a closer look

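In 45 of the named contigs, of which 57 were tested, the SMG difference between 2 years and 4 months departed from the mean difference of lines SB825 and SMH. The edgeR interaction test gave these calls, and 71.9% of all contigs also passed it. Many were named for a large difference in SMG, or were chosen by the study with the young SMG libraries included. That choice favours a departure in SMG, so the count is not independent evidence of one. The values below are differences of log2 differences, SMG minus the other lines, and those of contigs without reads at 4 months depend on the prior count of the fit.

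All 10 of the study's leading contigs had values below 0, though not all of them were lower in the other lines (caspase 2 was higher in SB825, with a log2 difference of 1.74). The values were -1.05 for cytoplasmic actin, -2.58 for actin-related protein 2/3, -3.39 for caspase 2, -0.84 for cell division cycle protein 23, -1.76 for collagen alpha 1, -0.94 for programmed cell death protein 5, -2.86 for tubulin alpha-1A, -3.60 for tubulin alpha-3C/D, -3.13 for tubulin alpha-3E and -2.91 for tubulin beta-2C. Values below 0 were also found for transgelin-2 (-1.55), carboxypeptidase A2 (-2.25), sodium-coupled monocarboxylate transporter 1 (-1.30), the notch 2 contigs CAP3_round1_contig_6397 (-1.30) and Bot_rep_c45034 (-0.95), proactivator polypeptide (-2.88), the 10 kDa heat shock protein (-0.92), the endoplasmin-like protein (-1.21) and 40S ribosomal protein S21 (-0.63). Nucleoredoxin (-1.50), glutathione S-transferase Mu 1 (-2.20), sulfotransferase 1C4 (-1.16) and the unnamed Bot_rep_c59063 (-2.42) complete this set.

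Values above 0 among contigs with no read at 4 months in SMG were 8.69 for CLIP-associating protein 1, 8.94 for troponin C, 9.06 for kelch-like protein 10, 7.22 for the very low-density lipoprotein receptor, 6.11 for amino acid transporter 1, 9.08 for the heparan sulfate proteoglycan core protein and 7.72 for translation initiation factor 4 gamma 1. The 3 trypsin-2 contigs with the largest differences in SMG had 10.95, 10.12 and 9.38. Of the 3 other trypsin-2 contigs without reads at 4 months, Bot_rep_c49803 had 9.05 (edgeR adjusted p = 0.0125), CAP3_round1_contig_5337 had 7.49 (edgeR adjusted p = 0.0531), and the last did not pass at 5.87 (edgeR adjusted p = 0.132). The unnamed CAP3_round1_contig_5548 had 17.04. With reads at 4 months, the values were 4.96 for testis-specific kinase 1, 4.82 for otoancorin, 2.59 for stabilin-2, 4.48 for macrophage mannose receptor 1, 2.00 for RNF213, 3.65 for the NFX1-type zinc finger protein, 9.23 for neuropilin-2, 3.42 for a cholinesterase and 4.35 for microsomal glutathione S-transferase 1. The unnamed Bot_rep_c50507 had 12.05 and CAP3_round1_contig_6491 had 2.67.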

How the results depend on the processing

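The count of differing contigs (19985, and 8859 past 2-fold, of 26919 tested) depended on the filter. Without a filter it was 31759 and 18502 of 45017 tested contigs. With edgeR's own filter it was 14377 past 2-fold of 35582, and at 5 CPM it was 10666 and 3142 of 14991. The share of tested contigs past 2-fold was thus smaller with a stricter filter. Leaving out 1 library at a time gave 18134 to 19858 and 7941 to 9228. DESeq2 called 19554 and 6844, limma-voom 20372 and 7622, and library totals alone 20332 and 11468. Replicate numbers do not pair the libraries (correlations of same-numbered deviations 0.050, 0.145 and -0.140), and a fit with the replicate block called 19688 and 8835. The interaction count ranged from 24125 to 24919 with a library left out, and with library totals alone 10258 contigs were above and 14717 below.

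The share higher in SB825 of contigs higher past 2-fold in SMG was 62.6% with library totals alone and 57.7% to 61.7% with a library left out, and in SMH 69.4% and 71.0% to 74.4%. For lower contigs it was 64.0% and 67.3% to 72.6% in SB825, and 80.2% to 83.6% with a library left out in SMH. Contigs seen only at 2 years numbered 684 when up to 2 reads were allowed at the other age, where 1 contig was seen only at 4 months, and 62 at 5 CPM, where none was. At 5 CPM the medians of 3 lists relative to all contigs changed sign, to -1.21 for muscle, 0.020 for notch and -1.30 for apoptosis, where fewer members were tested. Of 843 values for named contigs under alternatives 830 kept direction and call. Proactivator polypeptide turned to -0.43 with library totals alone and -0.063 without 4-month library 3, and was called at 1.58 without 4-month library 1.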

Other observations

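Homolog names outside the fixed groups that were carried by at least 3 tested contigs were listed after their values were seen, and came to 7 with latrophilin-2. All 4 contigs named stearoyl-CoA desaturase 5, an enzyme that makes unsaturated fatty acids, were higher past 2-fold at 2 years, with sums of 637, 236 and 2620 CPM against 5.18, 2.20 and 1.29 CPM at 4 months, and 3 of the 4 were higher past 2-fold in all 3 lines. The 3 contigs of 3,2-trans-enoyl-CoA isomerase, which acts in the breakdown of unsaturated fatty acids, were also higher past 2-fold, with sums of 588, 311 and 1139 CPM at 2 years and 12.7, 5.11 and 1.80 CPM at 4 months. In both, 2-year library 3 and 4-month library 1 held the highest sums, as in the digestive enzymes. The 3 perilipin-5 contigs, named for a coat protein of lipid droplets, were lower past 2-fold, with sums of 28, 30.4 and 40.8 CPM at 2 years and 185, 155 and 114 CPM at 4 months. Of 4 lactadherin contigs, named for a protein that tags dying cells for uptake in mammals, 3 were tested and higher past 2-fold. All 4 had sums of 33.7, 23.5 and 39.7 CPM at 2 years and 1.15, 0.87 and 0.79 CPM at 4 months. The study matched Bot_c550 among them to a macrophage mannose receptor 1-like protein of Ciona. The 3 contigs of ATP-binding cassette sub-family A member 3, a lipid transporter, were higher past 2-fold, with sums of 19.7, 12.2 and 7.96 CPM at 2 years and 0.086, 0.042 and 0.231 CPM at 4 months. Of 4 contigs of serine/threonine-protein kinase 11, a regulator of energy metabolism, 3 were tested and called higher, 2 of them past 2-fold. The 4 summed to 77.2, 42.9 and 75 CPM at 2 years and 7.57, 2.04 and 0.601 CPM at 4 months. Much of the 2-year sum was Bot_rep_c35531, with 53.7, 29.4 and 42.8 CPM. The study matched that contig to an IRE1-like protein of Ciona, so its identity is uncertain.

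In all, 8 homolog names had contigs that were higher and contigs that were lower past 2-fold at 2 years: aggrecan, attractin-like protein 1, cartilage intermediate layer protein 1, enhancer of rudimentary, notch 2, jagged-1, tubulin alpha-3C/D and tubulin beta-2C. For aggrecan, Bot_rep_c45512 had 8.83, 5.64 and 19.5 CPM at 2 years and 1.45, 0.623 and 0.139 CPM at 4 months, while Bot_c3785 had 0, 0 and 0.606 CPM at 2 years and 9.50, 10.4 and 7.40 CPM at 4 months.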
